A study of Homo sapiens with 16 samples.

Results

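The translation ratio of a gene is the level of its RNA in ribosome-nascent chain complexes (RNC), that is on ribosomes carrying a growing protein, over its level in total RNA. The profile described here is that of H9 cells, an established line of human embryonic stem cells, transfected with siRNA against OCT4 (gene POU5F1) and kept under hypoxia at 1% oxygen. It rests on 4 of the 16 libraries of the series, 2 of total RNA and 2 of RNC-bound RNA, which the deposited table joins into 2 columns of ratios, called culture 1 and culture 2 here. The 2 columns headed with the short form of siOCT4 and the number 1 for oxygen were taken, and the 6 columns of the other conditions (control siRNA, or 20% oxygen) were not used, so nothing here compares this condition with another. The cells grew without feeders in mTeSR1, and nothing in the labels tells whether these were separate cultures. The p-values therefore rest only on spread between these 2 columns, which may be technical. Limma, the program used for the tests, also moderates the variance of each gene with that of the other genes. Of 28252 genes in the table, 17509 had a ratio in both cultures and are described, 1410 had one in a single culture, and 9333 in neither.

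How densely a messenger RNA is loaded with ribosomes depends on how often ribosomes start on it, and cells differ widely in this between genes. Messengers of ribosomal proteins and elongation factors start with a terminal oligopyrimidine tract. Through it they are held off ribosomes when mTOR signalling falls, as when nutrients, growth factors or oxygen are short. OCT4 is a core transcription factor of the pluripotent state, and hypoxia acts through the HIF factors, which raise transcription of glycolytic genes. These points are background; the ratios below do not show which of these processes set them. A high ratio can stem from more RNC-bound RNA or from less total RNA, and the table holds neither level.

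Of the features computed, base composition followed the ranking most closely, so the first 20 codons of 6 genes are shown, 3 with high and 3 with low ratios. They are read 5′ to 3′ from the reference genome, with capitals marking G or C at the third position of a codon.
ESF1: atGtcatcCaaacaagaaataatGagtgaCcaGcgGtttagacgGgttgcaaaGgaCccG
PDS5B: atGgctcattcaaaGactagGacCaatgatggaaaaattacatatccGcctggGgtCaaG
HIF1A: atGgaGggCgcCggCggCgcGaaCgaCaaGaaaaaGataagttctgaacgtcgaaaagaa
RPL36: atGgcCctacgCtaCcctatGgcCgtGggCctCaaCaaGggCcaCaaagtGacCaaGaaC
PFKL: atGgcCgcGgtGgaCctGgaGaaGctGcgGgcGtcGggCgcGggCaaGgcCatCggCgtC
RPLP1: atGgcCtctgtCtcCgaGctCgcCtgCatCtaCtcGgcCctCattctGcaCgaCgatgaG
On GRCh38 these coding, exonic stretches lie at chr20:13783081-13783140 on the minus strand (ESF1) and, on the plus strand, at chr13:32648773-32648832 (PDS5B), chr14:61695805-61720406 (HIF1A, across an intron), chr19:5690508-5690567 (RPL36), chr21:44300106-44300165 (PFKL) and chr15:69452949-69453008 (RPLP1). Of the 20 codons, 10 end in G or C in ESF1 and 8 in PDS5B, against 17 in RPL36, 17 in RPLP1 and 20 in PFKL. HIF1A has 11 in this stretch, and the start of a coding sequence need not match the rest: the share over the whole is 33.4% in HIF1A and 51.3% in RPLP1. RPLP1 is shown because its transcript GC content of 47.7% is close to the median of all genes (49.8%) while its ratio is among the lowest: 0.16 in culture 1 and 0.161 in culture 2.

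Both cultures gave nearly the same order of genes among those with no repeated value. A ratio was called recurrent where at least 3 genes of that culture carried it, to within 2e-06 of its size, as values made from few reads would be, though the table holds no read numbers to check this; 5851 genes had such a value in at least 1 culture. Among the 11658 genes without one, Spearman's rho between cultures was 0.976 across genes, and the median difference between cultures was 0.13 on the log2 scale. Among the 5851 genes with one, rho was 0.609 and the median difference 0.62 on that scale. The median ratio was 1.36 in culture 1 and 1.33 in culture 2. The ratio's scale depends on the library totals, so a ratio of 1 has no meaning of its own, and each gene is read against the median of its culture. The depth of the 4 libraries is unknown, and no interval from read numbers can be given.

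**Figure D1:**
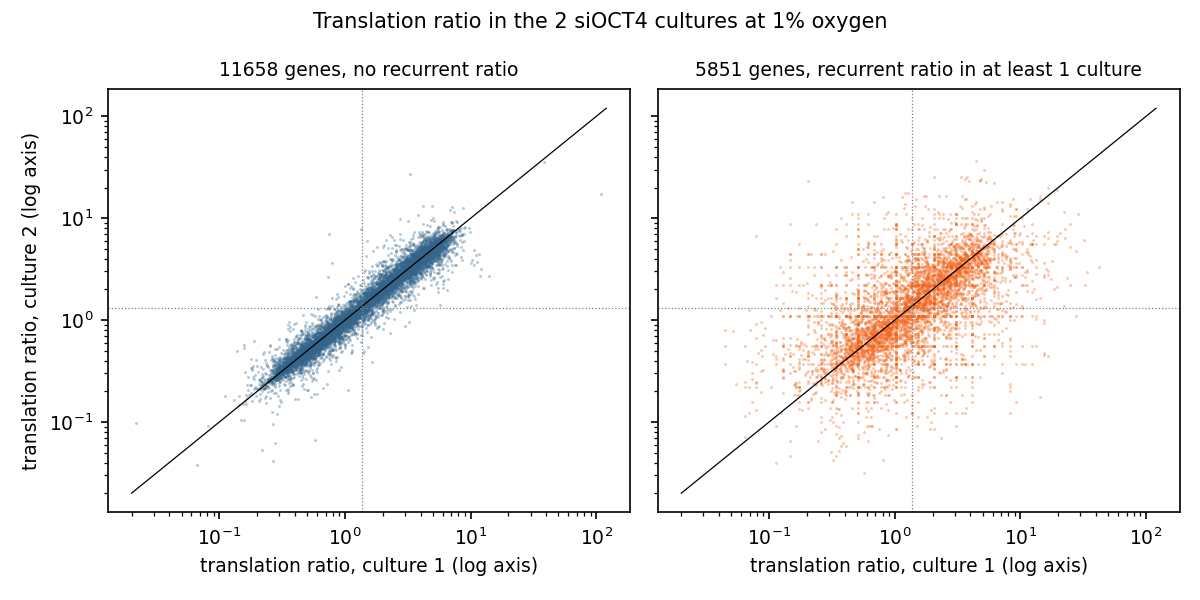
Translation ratio in culture 1 (x axis) against culture 2 (y axis), both on log axes, 1 point a gene; solid lines mark equal values and dotted lines the culture medians of 1.36 and 1.33. The 11658 genes with no recurrent ratio lie close to the line, while the 5851 with one spread widely and fall on grid lines of repeated values.

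Messengers rich in A and T had high ratios and messengers rich in G and C had low ones. Among 11031 protein-coding genes with no recurrent ratio, Spearman's rho of the ratio with transcript GC content was -0.85 in culture 1 and -0.861 in culture 2, across genes, which are not independent replicates. The 1606 of these genes under 40% GC had a median ratio of 4.1 in culture 1 and 4.17 in culture 2. The median was 1.87 and 1.84 for the 1860 genes at 45 to 50% GC, and 0.439 and 0.429 for the 1816 genes at 60% or more. A smooth curve in GC content accounted for 58.8% and 60.3% of the variance of the log2 ratio over all 16753 genes with a GC value, and for 71.8% and 73.6% among those with no recurrent ratio. The same order held in RNAs that code for no protein: over 284 long non-coding RNAs with no recurrent ratio, rho with GC content was -0.554 and -0.553. Composition at the third codon position (rho -0.783 and -0.795) and in the stretch after the stop codon (rho -0.75 and -0.759) followed the ratio nearly as closely as the whole transcript. No cause of this relation was tested.

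**Figure D2:**
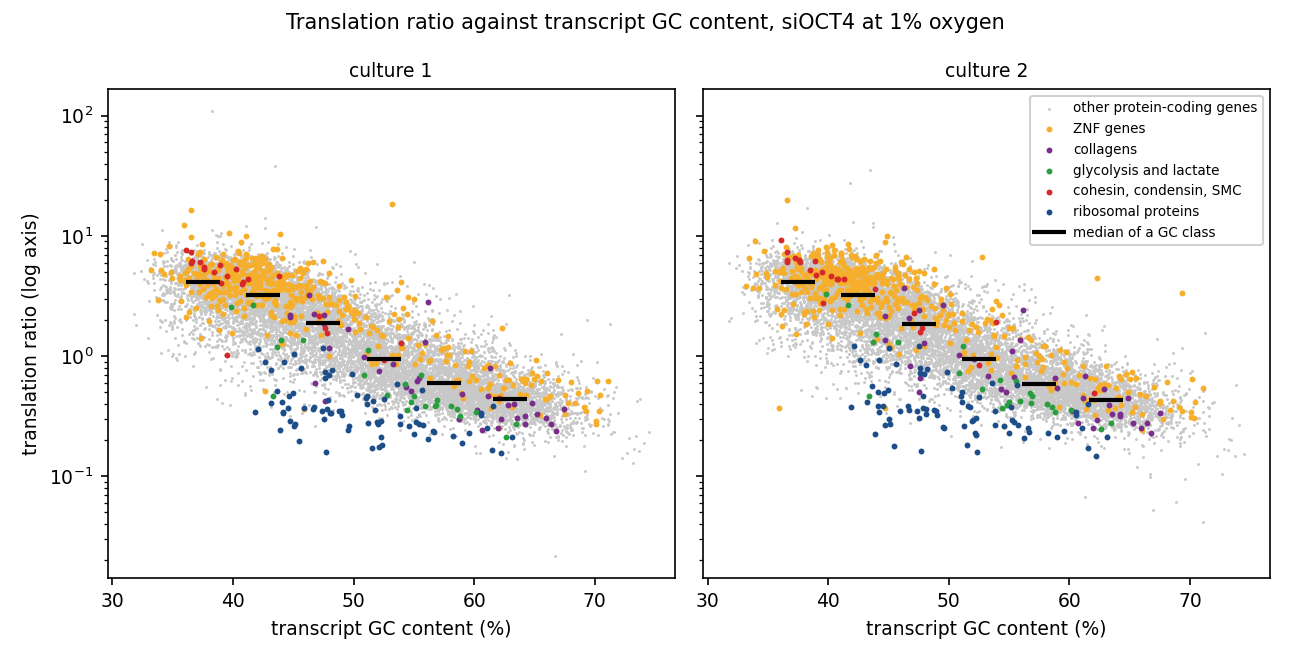
Translation ratio (y, log axis) against transcript GC content in percent (x) for protein-coding genes with no recurrent ratio (grey) and all members of 5 gene lists (colours), with black bars at the median of 6 GC classes, for each culture. The medians fall from 4.1 to 0.439 in culture 1 and from 4.17 to 0.429 in culture 2, and ribosomal proteins lie mostly below the bars, with class medians from 0.236 to 0.416 in culture 1.

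By limma's test against a 2-fold threshold, 1634 genes (9.33% of 17509) lay higher than the culture median and 1663 (9.5%) lower, at a Benjamini-Hochberg adjusted p under 0.05. These shares are the background for every count of genes that this fit called, while a restricted fit given further below has its own. The 2 columns leave 1 residual degree of freedom, and the lowest adjusted p that the fit gave was 0.0431, so the called genes all sit just inside the threshold, and adding 0.1 to the ratios before taking logs left none called (lowest adjusted p 0.052). When the GC curve was taken out first, limma called no gene in either direction, with 190 higher and 520 lower at an unadjusted p under 0.05. As a description with no test, 389 genes (2.22%) lay in the top 5% of both cultures and 431 (2.46%) in the bottom 5% of both. Among those with no recurrent ratio, the 288 at the top had a median transcript GC content of 38.8% and a median length of 4639 bases. The 302 at the bottom had 64% and 1624 bases.

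POU5F1, the target of the siRNA, had a ratio of 0.453 in culture 1 and 0.532 in culture 2. Its log2 distance from the culture median was -1.45 ± 0.11 (limma's moderated SE, n = 2), which did not pass limma's 2-fold test (adjusted p = 0.0853). A moderated SE draws on the variance of other genes and is not the spread of the gene's own 2 values. A ratio does not measure how much OCT4 messenger is left, so it is no check of the knockdown.

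The 12 highest protein-coding genes with no recurrent ratio were ranked by the worse of their ranks in the 2 cultures. PLCL1, a phospholipase C relative without catalytic activity, came first, with ratios of 38.1 and 35.4. This is 27.3-fold above the culture median (log2 4.77 ± 0.45, limma's moderated SE, n = 2, adjusted p = 0.0444 by limma). CACNB4, a subunit of voltage-gated calcium channels, had 109 in culture 1 and 17.2 in culture 2, values too far apart to pass (adjusted p = 0.112). NEK10, a kinase, had 8.64 and 12.7. ESF1, a nucleolar factor of ribosomal RNA processing, had 8.95 and 8.20, and CDNF, a neurotrophic factor of the secretory pathway, 8.82 and 8.02. ESCO1, which acetylates cohesin, had 7.65 and 9.33, and ANGPT2, a ligand of the TIE2 receptor, 7.89 and 7.78. The other names among the first 12 were ZNF267, CCDC186, MSANTD4, ARAP2 and ZNF92, whose ratios ran from 7.54 to 9.79. Of these 12 all except CACNB4 were called higher, and the GC contents ran from 34.7% (ZNF92) to 43.7% (NEK10).

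The 12 lowest protein-coding genes were ranked in the same way. POMC, the precursor of ACTH and endorphins, had 0.0219 and 0.0984, again too far apart to pass (adjusted p = 0.11 by limma). METRN, a secreted factor of glial differentiation, had 0.148 and 0.104, and TMEM160 had 0.142 and 0.148. Of the ribosomal proteins, RPL36 had 0.155 and 0.149 and RPS12 0.172 and 0.182, both called lower. AJM1, TMEM238, C4orf48, LYL1 and KCNT1 were also among the lowest 12, beside RPLP1, with ratios from 0.105 to 0.179. The 3 of these with the highest GC content were TMEM238 (73.7%), C4orf48 (73.2%) and AJM1 (72.7%), while RPLP1 and RPS12 had only 47.7% and 51.5%.

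Gene families were described with 66 lists, all with at least 8 measured members, by the median ratio in each culture. The list medians lay above the culture median in both cultures for 26 lists and below it in both for 34. Within the lists the ratio again went with base composition, since Spearman's rho between GC content and ratio was under -0.6 in both cultures in 52 of the 66.

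**Figure D3:**
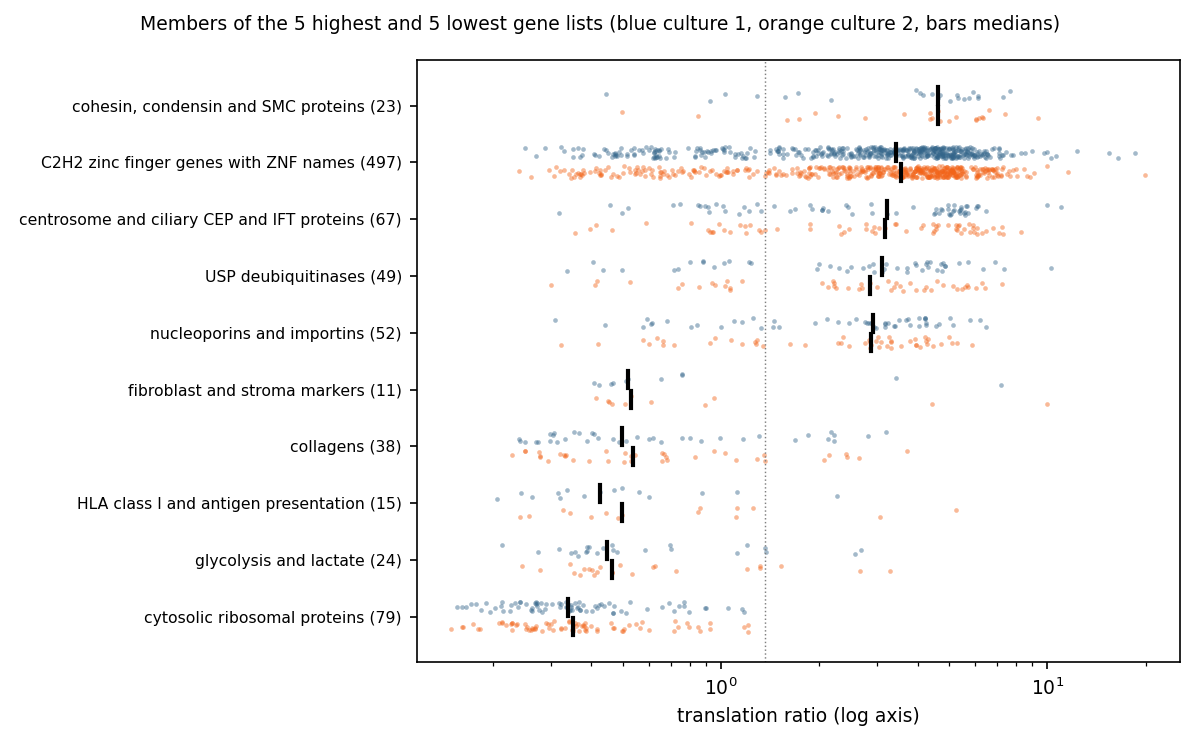
Ratio (x, log axis) of each member of the 5 lists with the highest and the 5 with the lowest median, member numbers in brackets; blue points are culture 1, orange points culture 2, black bars the medians and the dotted line the median of all genes in culture 1. The medians range from 4.61 in both cultures (cohesin, condensin and SMC proteins) to 0.338 and 0.35 (cytosolic ribosomal proteins), and every list but the last has members on both sides of the dotted line.

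Cohesin, condensin and other SMC proteins, the rings that hold sister chromatids together and fold chromosomes, had the highest list median, 4.61 in each culture. Of 23 members, 15 were called higher and none lower, against a background of 9.33% and 9.5%. The loader and release factors NIPBL (4.67 and 4.98) and WAPL (4.14 and 4.35) and the ring subunits SMC3 (5.76 and 6.19) and SMC4 (6.11 and 6.61) were among them, with STAG2 (6.13 and 6.03) and PDS5B (7.28 and 7.39). The kleisin RAD21, which closes the cohesin ring, had 3.96 and 4.35. Not every ring partner stood as high: SMC1A had 2.18 and 2.28, and the condensin subunits NCAPD2 and NCAPH2 had 0.927 and 0.85, and 0.445 and 0.496. NIPBL, WAPL, SMC3, RAD21 and SMC1A were added for their roles after their values were seen. The list's members were AT-rich (median GC 39.5%), and its rho with GC content was -0.9 and -0.956. In the top 10% of both cultures were 11 of the 23, beside 6.15% of all genes. Taken against the GC curve, the list median was 1.43-fold above it in culture 1 and 1.44-fold in culture 2. Of the 23 members, 18 lay above the curve in both, beside 41.9% of all genes. Under 40% GC, 12 members had median ratios of 5.66 and 6.12. The 1606 protein-coding genes of that class with no recurrent ratio had 4.10 and 4.17.

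ZNF genes, the large family of C2H2 zinc finger proteins, many of which are KRAB repressors of transposable elements, came next with medians of 3.44 and 3.57 over 497 members. Of these, 162 were called higher and 17 lower. ZNF267 (9.79 and 8.05), ZNF92 (8.29 and 7.54) and ZNF14 (7.23 and 7.67) led, while ZNF219 (0.27 and 0.312) and ZNF581 (0.251 and 0.321) were at the other end. The family divides by composition: 295 members under 45% GC had medians of 4.48 in each culture, 113 at 45 to 55% had 2.62 and 2.49, and 87 at 55% or more had 0.627 and 0.584. In the class of 45 to 50% GC, the 75 ZNF genes, recurrent ratios not excluded, had medians of 3.03 and 2.98. The 1860 protein-coding genes of the class with no recurrent ratio had 1.87 and 1.84. Against the GC curve, 379 of the members lay above it in both cultures and 67 below, beside 41.9% and 40.4% of all genes. Their copies are similar in sequence, so reads that match several of them could have been split among them by the authors' counting.

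Centrosome and ciliary proteins of the CEP and IFT kind had medians of 3.23 and 3.17 over 67 members, of which 26 were called higher and 2 lower. CEP126 (9.94 and 7.33) and CEP162 (6.04 and 6.10), both centrosomal, and BBS12 (6.10 and 6.49), a chaperonin-like protein of the ciliary BBSome pathway, led them. CEP170B (0.319 and 0.355) and IFT27 (0.456 and 0.414) were the lowest. The USP deubiquitinases, which take ubiquitin off proteins, had medians of 3.11 and 2.87 over 49 members, with 11 called higher and 3 lower. USP53 had 6.90 and 7.25 and USP37 6.36 and 6.43, whereas USP5, which recycles free ubiquitin chains, had 0.336 and 0.301. Nucleoporins and importins, the gates and carriers of nuclear transport, had 2.91 and 2.87 over 52 members, with 12 higher and 2 lower. RANBP17 (6.47 and 5.88), IPO7 (5.79 and 5.28) and TPR (5.12 and 5.08) stood high, and IPO4 (0.31 and 0.323) low. Against the GC curve, the medians of these 3 lists were 1.15-fold to 1.36-fold above it. Protein-coding genes under 40% GC with no recurrent ratio also lay above it, by 0.23 and 0.22 on the log2 scale. In that class, 12 nucleoporins and importins had median ratios of 4.01 and 3.62, beside 4.10 and 4.17 for those genes. At 40 to 45% GC, 16 had 3.62 and 3.67, beside 3.19 and 3.22.

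Cytosolic ribosomal proteins were the lowest of the 66 lists. Their median ratio was 0.338 in culture 1 and 0.35 in culture 2. All 79 members lay below the culture median in both, beside 44.9% of all genes. Of the 79, 59 were called lower, against a background of 9.5%. In the bottom 10% of both cultures were 53 of the 79, beside 6.33% of all genes. The 47 proteins of the large subunit had medians of 0.357 and 0.365, and the 32 of the small subunit 0.292 and 0.304. RPL36, RPLP1 and RPS12, whose values stand above, were among the lowest. RPL6 (1.17 and 1.21), RPL22 (1.15 and 1.21), RPL5 (1.05 and 1.18) and RPS6 (0.896 and 0.927), named after their values were seen, were the highest, still under the median of all genes. Ribosomal proteins have many processed pseudogenes in the genome, and how the authors' counting assigned reads shared with these copies is not given in the sources used here.

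This list was low in every GC class in which it had members, all of them at 40% GC or more. In the class of 40 to 45% GC, 15 ribosomal proteins had medians of 0.416 and 0.495. The 2338 protein-coding genes of the class with no recurrent ratio had 3.19 and 3.22. At 45 to 50% GC, 26 had 0.356 and 0.357, beside 1.87 and 1.84. At 60% or more, 7 had 0.252 in each culture, beside 0.439 and 0.429. Against the GC curve, the list median was 0.286-fold in culture 1 and 0.291-fold in culture 2. All 79 members lay under the curve in both, beside 40.4% of all genes. In the lowest 10% of corrected values in both were 71, beside 5.8% of all genes. RPL36A (0.196 and 0.179), RPLP1 and RPL39 (0.242 and 0.227) lay furthest under it. With transcript length taken out as well, the median was 0.332-fold and 0.342-fold.

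**Figure D4:**
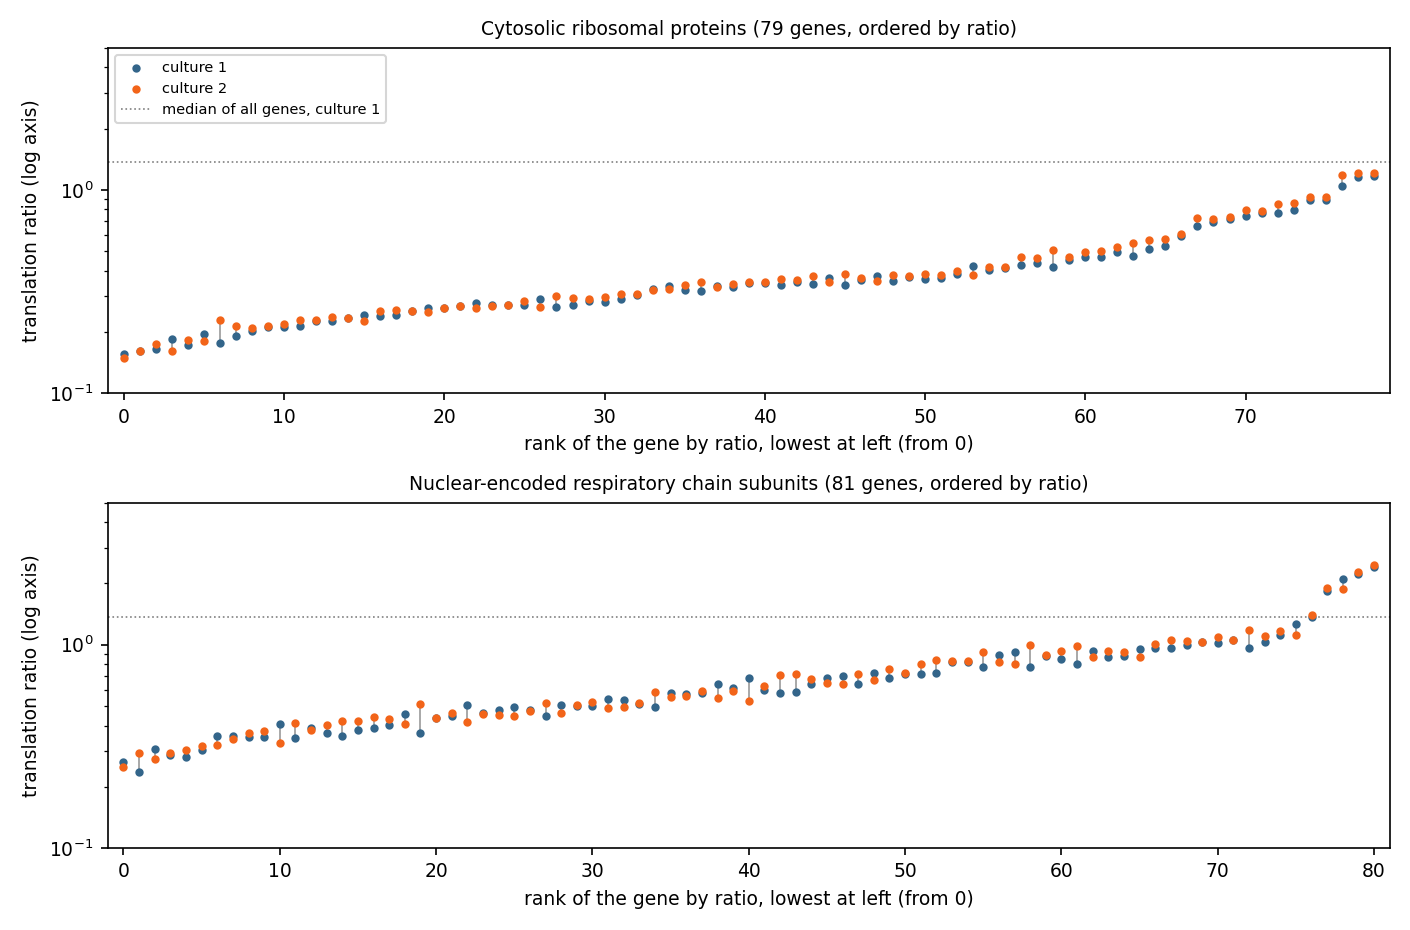
Ratio (y, log axis) of each cytosolic ribosomal protein (upper panel) and each nuclear-encoded subunit of the respiratory chain (lower panel) in culture 1 (blue) and culture 2 (orange), by rank (x, lowest at left), with the median of all genes in culture 1 dotted. All 79 ribosomal proteins lie under the dotted line at 1.36, and 76 of 81 respiratory chain subunits lie below the median of both cultures. Of all genes, 44.9% lie below the median of both.

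The rest of the machinery of protein synthesis was divided by role. Mitochondrial ribosomal proteins had medians of 0.748 and 0.843 over 78 members, with none called higher and 14 lower. MRPS24 (0.251 and 0.171) and MRPL12 (0.286 and 0.287) were lowest, and MRPS10 had 2.79 and 2.95. Elongation and release factors had 0.98 and 1.04 over 18 members, with 7 called lower and 1 higher. The subunits of elongation factor 1, EEF1G (0.293 and 0.312) and EEF1D (0.297 and 0.307), and the translocase EEF2 (0.322 and 0.332) were low, and the ribosome recycling factor ABCE1 was high (5.25 and 5.06). Genes with EIF names, mostly initiation factors, had 1.45 and 1.49 over 54 members, with 7 called higher and 3 lower. EIF5B, which joins the ribosomal subunits, had 5.21 and 5.85, and the stress kinases EIF2AK3 (PERK) and EIF2AK2 (PKR), which halt initiation, had 5.23 and 5.46, and 4.35 and 4.22. EIF6, an anti-association factor of the large subunit, had 0.316 and 0.331, and EIF3G 0.373 and 0.394.

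Ribosome biogenesis factors stood near the median of all genes, with 1.57 and 1.5 over 60 members, 10 called higher and 11 lower. WDR75 (5.18 and 5.80) and NOP58 (4.92 and 5.29), which work on pre-ribosomal RNA, were high, while TSR3 (0.263 and 0.243) and NOC2L (0.301 and 0.325) were low. The aminoacyl-tRNA synthetases had 1.04 and 1.07 over 37 members, with 4 called in each direction. RARS (4.36 and 5.14) and TARS (4.05 and 4.06) stood opposite FARSA (0.309 and 0.297) and VARS (0.33 and 0.328).

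Enzymes and transporters of glycolysis and lactate, the pathway that HIF factors raise under hypoxia, had the second lowest list median on the log2 scale averaged over both cultures, with ratios of 0.448 and 0.462. Of 24 members, 13 were called lower and none higher. In the order of the pathway, the glucose transporter SLC2A1 had 0.415 and 0.393, PFKL 0.274 and 0.278, ALDOA 0.346 and 0.355, and GAPDH 0.319 and 0.344. Further down, PGK1 had 0.465 and 0.461, ENO1 0.357 and 0.37, and PKM 0.363 and 0.379. The lactate exporter SLC16A3 had 0.213 and 0.245. Several members of the same pathway were not called: LDHA had 1.37 and 1.52, HK2 1.12 and 1.20, SLC16A1 2.68 and 2.66, and PDK1, which closes the way into mitochondria, 2.56 and 3.29. SLC2A1, PGK1, ENO1, PKM, LDHA and HK2 were named for their steps after their values were seen. The members were GC-rich (median 54.9%), and against the GC curve the list was 0.558-fold and 0.599-fold. Of the 24 members, 23 lay under the curve in both cultures, beside 40.4% of all genes. At 55 to 60% GC, 9 members had a median log2 distance of -0.87 and -0.73 from the curve. The 1713 protein-coding genes of that class with no recurrent ratio had -0.20 and -0.19. At 43.3% GC, PGK1 had a log2 distance from the curve of -2.50 and -2.52. GAPDH, PGK1 and LDHA also have processed pseudogenes.

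Nuclear-encoded subunits of the mitochondrial respiratory chain, with ATP synthase included, had medians of 0.596 and 0.59 over 81 members, with 25 called lower and none higher. Complex I had medians of 0.596 and 0.651 over 37 genes, complex III 0.572 and 0.525 over 11, complex IV 0.505 and 0.516 over 11, and ATP synthase 0.654 and 0.674 over 18. The 4 genes of complex II, which is also an enzyme of the tricarboxylic acid cycle, had 0.947 and 0.961. ATP5F1D (0.263 and 0.25), NDUFA11 (0.287 and 0.293) and NDUFB7 (0.236 and 0.294) were lowest, and UQCRC2 (2.40 and 2.47) and NDUFS1 (2.22 and 2.27) were highest. Against the GC curve the list was 0.466-fold and 0.471-fold. Of the 81 members, 80 lay under the curve in both cultures and 43 in the lowest 10%, beside 40.4% and 5.8% of all genes. ATP5F1E, at 38.7% GC, had 0.444 and 0.462, a log2 distance of -2.97 and -2.94 from the curve. The list takes names by pattern and includes the retrocopies UQCRHL and UQCRBP1.

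Among other mitochondrial groups, protein import components had medians of 0.58 and 0.595 over 25 members, with 6 called lower and none higher. TIMM13 had 0.269 and 0.267, and TOMM70, a receptor of the outer membrane, 3.26 and 3.15. Enzymes of the tricarboxylic acid cycle had 0.983 and 1.06 over 24 members, with 4 called lower and none higher, among them MDH2 (0.459 and 0.469). DLD, the shared E3 subunit of the dehydrogenase complexes, had 3.53 and 4.12. None of the mitochondrially encoded messengers is analysed here.

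HIF-responsive genes outside glycolysis, with the HIF pathway's own components, were spread over the whole range and centred near the median of all genes, at 1.26 and 1.31 over 37 members, with 4 called higher and 2 lower. HIF1A, the oxygen-regulated subunit, had 5.31 and 5.42, while its partner ARNT had 2.23 and 2.45 and EPAS1 (HIF2A) 1.08 and 1.54. The prolyl hydroxylase EGLN1, which marks HIF for decay, had 1.70 and 1.82, and VHL, which binds the marked protein, 1.36 and 1.26. Among the targets, the histone demethylases divided, with KDM3A at 4.26 and 4.12 and KDM4B at 0.384 and 0.373. So did the lysyl hydroxylases of collagen, with PLOD2 at 4.0 and 4.21 and PLOD1 at 0.375 and 0.372. ERO1A, an oxidase of the endoplasmic reticulum, had 4.22 and 4.04, VEGFA 1.08 and 1.02, and the mitophagy receptors BNIP3 and BNIP3L 0.816 and 0.812, and 2.93 and 3.24. ARNT, EPAS1, EGLN1, VHL, KDM3A, VEGFA, BNIP3 and BNIP3L were named for their roles after their values were seen. The split followed composition, with a rho with GC content of -0.816 and -0.832, and BNIP3, at 44.8% GC, had a log2 distance of -1.49 and -1.5 from the curve.

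All 10 markers of primed pluripotency had a ratio in both cultures, with no recurrent value. SOX2 had 2.63 and 2.74, NANOG 2.02 and 2.57, SALL4 2.45 and 2.29, TDGF1 2.20 and 2.32, and DPPA4 2.17 and 1.99. L1TD1, an RNA-binding protein, had 4.52 and 5.27 and was the only one called higher. ZFP42 had 1.18 and 1.08, LIN28A 0.681 and 0.703, and DNMT3B 0.633 and 0.60. The paralog LIN28B had 4.74 and 5.13, so the pair lay on opposite sides of the median. The wider list of 40 primed genes had medians of 1.43 and 1.28, with 2 called higher and 4 lower, the latter including the NODAL antagonist LEFTY2 (0.401 and 0.427) and the neuropeptide GAL (0.421 and 0.389). Of markers of other cells the culture could hold, 16 of 22 for trophoblast and amnion, 19 of 24 for primitive streak, endoderm and mesoderm, 25 of 26 for neuroectoderm and neural crest, and 11 of 14 for fibroblasts had a ratio in both cultures. With no levels in the table, their abundance was not analysed here, and in bulk cultures fewer cells of a type and less RNA per cell cannot be told apart. Many of these ratios were recurrent. Only 5 of the 16 trophoblast, 11 of the 19 primitive streak, 10 of the 25 neuroectoderm and 6 of the 11 fibroblast markers had none. Of all 28252 genes, 17509 had a ratio in both cultures, and 11658 of these 17509 had no recurrent one.

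Collagens, the triple-helical proteins of the matrix, had medians of 0.498 and 0.537 over 38 members, with 15 called lower and none higher. The basement membrane collagens COL18A1 (0.24 and 0.228) and COL4A2 (0.251 and 0.25) were lowest, and COL12A1 had 3.20 and 3.70. Fibroblast markers, with COL1A1 (0.466 and 0.451) and TAGLN (0.408 and 0.413), had 0.516 and 0.528 over 11 members, 3 of them called lower. They lay on both sides of the median of all genes, with highest ratios of 7.20 in culture 1 and 9.96 in culture 2. Class I antigen presentation had 0.423 and 0.496 over 15 members, with 5 called lower, among them HLA-B (0.379 and 0.40) and HLA-C (0.32 and 0.328). Only 7 of those 15 had no recurrent ratio, and reads of these similar and variable genes could have been split among them. Against the GC curve the medians of these 3 lists were 0.582-fold to 0.801-fold of it, and they lay nearer to other genes than without it. Matrix glycoproteins and enzymes had 0.576 and 0.72 over 35 members, with 14 called lower and 1 higher. The lower ones included the heparan sulphate proteoglycans HSPG2 (0.225 and 0.208) and AGRN (0.24 and 0.222).

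**Figure D5:**
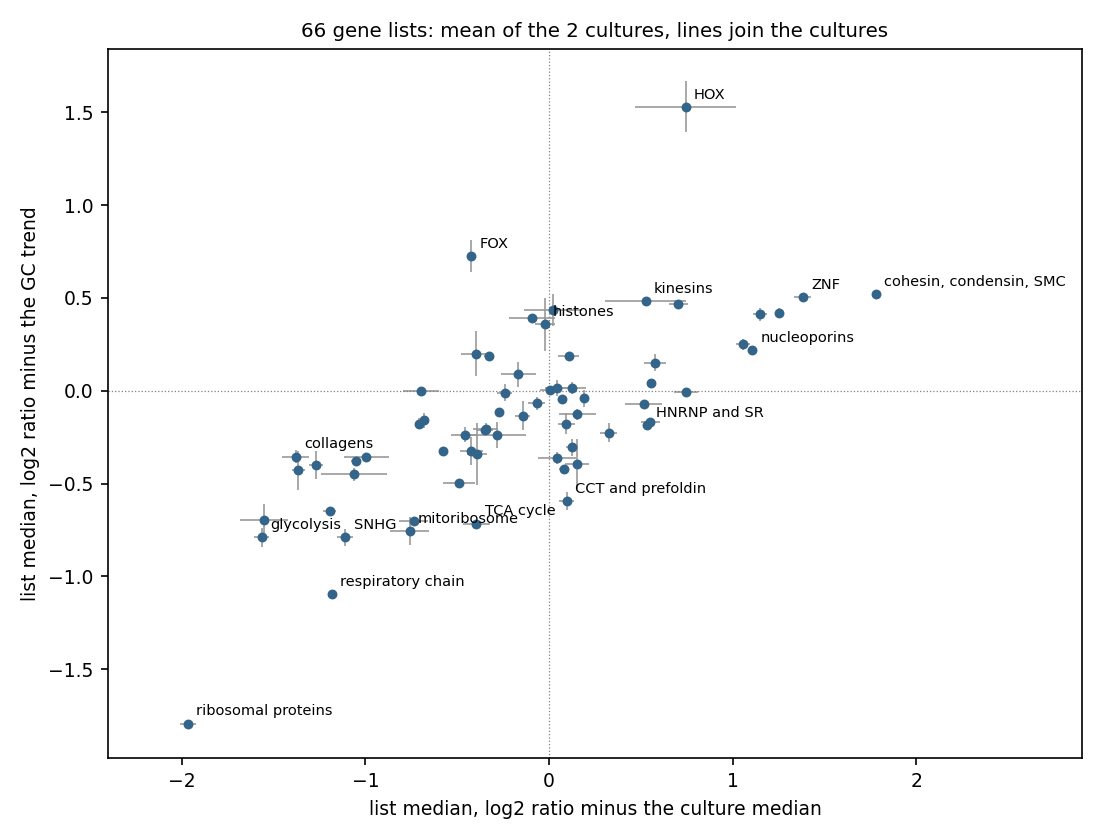
Median of each of the 66 lists as the log2 ratio minus the culture median (x) and minus the GC curve (y); points are means of the 2 cultures and lines join the cultures' values. Ribosomal proteins and respiratory chain subunits lie lowest on the y axis, at -1.80 and -1.78, and at -1.10 and -1.09, in cultures 1 and 2, and HOX and FOX genes lie highest.

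With the GC curve taken out, 16 of the 66 list medians changed side in both cultures, and ribosomal proteins and then respiratory chain subunits had the lowest medians. Among the 11471 genes with a GC value and no recurrent ratio, limma called 16 higher and 145 lower than the curve by the 2-fold test. This restricted fit was added once the data had been seen. The background for counts from this fit is therefore 145 lower and 16 higher of 11471 genes. Of the 145, 44 were cytosolic ribosomal proteins (of 79 fitted), 17 were respiratory chain subunits (of 79) and 5 were hosts of small nucleolar RNAs (of 23). Outside the lists, TPT1, whose messenger carries a terminal oligopyrimidine tract, had 0.319 and 0.339 and a log2 distance of -2.84 from the curve (adjusted p = 0.019 by limma). Other genes outside the lists were called lower as well, at log2 distances down to -2.96. No transcript was searched for such a tract. The 16 higher ones included PLCL1, the clathrin adaptor STON2 (5.82 and 6.19), the deacetylase HDAC9 (7.01 and 6.98), the calcium sensor CRACR2A (3.90 and 3.97), the netrin receptor UNC5D (4.62 and 4.30) and the transcription factor SP1 (4.14 and 4.0). TPT1 and SP1 were named after their values were seen. In the highest 10% of corrected values in both cultures, which held 5.03% of all genes, were 51 of the 497 ZNF genes. HOX genes had the highest corrected median, 1.39 and 1.67 on the log2 scale, but all 9 had a recurrent ratio and none was called.

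Longer coding sequences went with higher ratios at a given composition. Across 11029 protein-coding genes with no recurrent ratio, rho of coding length with the GC-corrected value was 0.425 in culture 1 and 0.406 in culture 2. The 901 genes with under 500 coding bases had a median of -0.74 and -0.66 relative to the curve, on the log2 scale, and the 864 with 4000 or more had 0.36 and 0.34. The ribosomal proteins' median of -1.80 and -1.78 lay below that of the shortest class.

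RNAs that code for no protein reached both ends of the ranking. THAP9-AS1 had 6.75 and 6.01, EBLN3P 5.45 and 5.47, and LINC00641 5.85 and 5.10, all called higher. PRKG1-AS1 had 4.94 and 13.1, too far apart to pass (adjusted p = 0.139 by limma). SNHG5, a host of small nucleolar RNAs, had 0.206 and 0.159, and the imprinted RNA H19 had 0.248 and 0.271. MIF-AS1 (0.282 and 0.256) and TP53TG1 (0.301 and 0.313) completed the low end by the rule. The list of 26 such hosts, many of which begin with an oligopyrimidine tract as ribosomal protein messengers do, had medians of 0.651 and 0.598. Of these 26, 6 were called lower and none higher. Under the GC curve in both cultures lay 23 of them, beside 40.4% of all genes. RN7SK, a small nuclear RNA that holds back the elongation kinase P-TEFb, had 0.0805 and 0.0916. TUG1 (5.20 and 4.90) was called higher, while MALAT1, an RNA of nuclear speckles, had 5.59 and 3.85 and was not (adjusted p = 0.0852 by limma). The strand setting of the authors' counting is not given, so reads of antisense RNAs and of the genes they overlap cannot be told apart. As a class, 284 long non-coding RNAs with no recurrent ratio had medians of 1.48 and 1.46, beside 1.36 and 1.34 for 11031 protein-coding genes.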

How the data were processed

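RNA-seq and RNC-seq (sequencing of RNA on ribosomes that carry a nascent chain) were made from H9 cells treated with siOCT4 at 1% oxygen. The authors deposited a table of translation ratios with 1 ratio per gene and culture. The submitters' processing notes name edgeR and hg19 with no roles; mapper, annotation, filters, strand setting and library totals: not given in the sources used here. The 6 columns of other conditions were not used. The members and gene lists were chosen with earlier results of these data known.

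The log2 ratio minus the culture median was tested with limma 3.58.1 (R 4.3.3; intercept, trend and robust variance, treat with a 2-fold threshold, Benjamini-Hochberg adjusted p under 0.05), and the code was tested on simulated data. GC content came from GENCODE release 29 on GRCh38 (1 transcript a gene, by APPRIS rank and support), matched by symbol for 16753 of 17509 genes (95.7%), and a natural spline with 6 degrees of freedom was the GC curve. Genes named are POU5F1, the 12 protein-coding genes at each end by the worse rank, the 8 by GC-corrected rank, 4 non-coding genes at each end, and up to 4 and 2 members of each list on either side, all with no recurrent ratio; others are said to be named after their values were seen. Some genes that this rule names are not reported here. Alternatives changed the pseudocount, variance settings, gene filters, centring, GC and length correction, tails and cultures.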

Additional observations from a re-analysis of the deposited data

How the results depend on the processing

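The 1634 higher and 1663 lower genes became 5588 and 5587 when tested against no difference from the median in place of 2-fold. They became 2473 and 2560 of 11658 without genes with a recurrent ratio, with 1449 and 1439 of the first calls kept, and 16 and 145 with GC correction as well. Limma called 0 and 0 with GC correction (190 and 520 at an unadjusted p under 0.05), with GC and length correction (203 and 452), with GC as the median over transcripts (371 and 583) and with a pseudocount of 0.1 (2863 and 2608). A culture alone, counted past 2-fold with no test, gave 4822 to 5013 higher and 4774 to 4827 lower. The tails of 389 and 431 genes became 25 and 32 at 1%, and 1076 and 1109 at 10%. The list values that follow are log2 distances from the culture median or the GC curve. In the main setting they were -1.97 for cytosolic ribosomal proteins, 1.15 for USP deubiquitinases, -1.57 for glycolysis and lactate, 1.25 for CEP and IFT proteins, 1.78 for cohesin, condensin and SMC, 1.38 for ZNF genes, 1.10 for nucleoporins and importins, -1.38 for collagens, -1.55 for HLA and -1.37 for fibroblast and stroma markers. With GC correction, the median was -1.79 for cytosolic ribosomal proteins, 0.41 for USP deubiquitinases, -0.79 for glycolysis and lactate, 0.42 for CEP and IFT proteins, 0.52 for cohesin, condensin and SMC, 0.50 for ZNF genes, 0.22 for nucleoporins and importins, -0.36 for collagens, -0.70 for HLA and -0.43 for fibroblast and stroma markers. With GC and length correction, the median was -1.57 for cytosolic ribosomal proteins, 0.29 for USP deubiquitinases, -0.80 for glycolysis and lactate, 0.35 for CEP and IFT proteins, 0.39 for cohesin, condensin and SMC, 0.42 for ZNF genes, 0.11 for nucleoporins and importins, -0.56 for collagens, -0.56 for HLA and -0.56 for fibroblast and stroma markers. With GC taken as the median over transcripts (added after the data were seen), the median was -1.80 for cytosolic ribosomal proteins, 0.32 for USP deubiquitinases, -0.84 for glycolysis and lactate, 0.39 for CEP and IFT proteins, 0.55 for cohesin, condensin and SMC, 0.63 for ZNF genes, 0.18 for nucleoporins and importins, -0.54 for collagens, -0.62 for HLA and -0.50 for fibroblast and stroma markers. Without genes with a recurrent ratio, the median was 1.13 for CEP and IFT proteins, 1.08 for nucleoporins and importins, -1.54 for collagens and -1.57 for fibroblast and stroma markers. Each culture alone gave list medians of -2.01 to -1.92 for cytosolic ribosomal proteins, 1.11 to 1.19 for USP deubiquitinases, -1.61 to -1.52 for glycolysis and lactate, 1.24 to 1.25 for CEP and IFT proteins, 1.76 to 1.80 for cohesin, condensin and SMC, 1.34 to 1.43 for ZNF genes, 1.09 to 1.11 for nucleoporins and importins, -1.45 to -1.31 for collagens, -1.69 to -1.42 for HLA and -1.40 to -1.33 for fibroblast and stroma markers. For other lists and for genes, some values crossed 0. With GC correction, the side changed to -0.30 for translation initiation factors, -0.040 for ribosome biogenesis factors, -0.59 for CCT chaperonin and prefoldin, -0.42 for UBE2 ubiquitin-conjugating enzymes, -0.39 for vacuolar ATPase subunits, -0.23 for DNA replication and licensing, -0.073 for kinetochore proteins, -0.19 for HNRNP and SR splicing factors, 0.73 for FOX genes, -0.0043 for cadherins and other protocadherins, -0.18 for RAB GTPases, 0.088 for GPR and ADGR receptors, 0.19 for MAP kinases and phosphatases, 0.20 for neuroectoderm markers, -0.13 for LINC RNAs, -0.047 for antisense RNAs, -0.17 for nuclear long non-coding RNAs, -0.18 for BNIP3L, -0.58 for DPPA4, -0.48 for EGLN1, 0.31 for EPAS1, -0.78 for LDHA, -0.085 for MRPS10, -0.024 for NANOG, -0.38 for NDUFS1, -0.21 for PDK1, -0.18 for SLC16A1, -0.14 for TDGF1 and 0.29 for VEGFA. With GC and length correction, the side changed to -0.26 for translation initiation factors, -0.53 for CCT chaperonin and prefoldin, -0.33 for UBE2 ubiquitin-conjugating enzymes, -0.36 for vacuolar ATPase subunits, -0.24 for DNA replication and licensing, -0.25 for HNRNP and SR splicing factors, 0.66 for FOX genes, -0.14 for cadherins and other protocadherins, -0.18 for RAB GTPases, 0.12 for MAP kinases and phosphatases, 0.018 for primitive streak markers, 0.14 for neuroectoderm markers, -0.20 for BNIP3L, -0.55 for DPPA4, -0.66 for EGLN1, 0.11 for EPAS1, -0.74 for LDHA, -0.18 for NANOG, -0.50 for NDUFS1, -0.27 for PDK1, -0.24 for SLC16A1, -0.11 for TDGF1 and 0.55 for VEGFA. With GC taken as the median over transcripts (added after the data were seen), the side changed to -0.24 for translation initiation factors, -0.054 for ribosome biogenesis factors, -0.82 for CCT chaperonin and prefoldin, -0.015 for HSP70, HSP90 and DNAJ chaperones, -0.42 for UBE2 ubiquitin-conjugating enzymes, -0.31 for vacuolar ATPase subunits, 0.10 for HIF-responsive genes outside glycolysis, 0.053 for the stress response, -0.19 for DNA replication and licensing, -0.10 for kinetochore proteins, -0.32 for HNRNP and SR splicing factors, 0.75 for FOX genes, -0.019 for cadherins and other protocadherins, -0.15 for RAB GTPases, 0.065 for GPR and ADGR receptors, 0.063 for WNT and FZD genes, 0.13 for MAP kinases and phosphatases, 0.14 for trophoblast and amnion markers, 0.10 for primitive streak markers, 0.27 for neuroectoderm markers, -0.10 for LINC RNAs, -0.044 for antisense RNAs, -0.29 for nuclear long non-coding RNAs, -0.21 for CCT8, -0.11 for DPPA4, -0.87 for EGLN1, 0.85 for EPAS1, -0.73 for LDHA, -0.15 for MRPS10, -0.28 for NDUFS1, -0.15 for TOMM70, -0.12 for UQCRC2 and 0.55 for VEGFA. Without genes with a recurrent ratio, the side changed to -0.044 for UBE2 ubiquitin-conjugating enzymes, 0.087 for HIF-responsive genes outside glycolysis and 0.13 for MAP kinases and phosphatases. With GC correction and no recurrent ratios (added after the data were seen), the side changed to -0.25 for BNIP3L, -0.65 for DPPA4, -0.52 for EGLN1, 0.41 for EPAS1, 0.037 for HK2, 0.047 for KIF26A, -0.82 for LDHA, -0.14 for MRPS10, -0.055 for NANOG, -0.44 for NDUFS1, -0.29 for PDK1, -0.24 for SLC16A1, -0.18 for TDGF1 and 0.41 for VEGFA. From 1 culture alone, EPAS1 ran from -0.33 to 0.22 and VHL from -0.075 to 0.0011. No cause of these changes was tested. Of 177 genes named, 136 were called, and none of the 136 kept its call with GC correction over all genes. No paired analysis was possible because the ratios come from 1 group, with no second group to pair the cultures with. The ratios carry no read numbers, so depth limits are unknown, and the 1 residual degree of freedom limits every call.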

Other observations

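Centromere, kinetochore and checkpoint proteins had medians of 1.82 and 2.03 over 47 members, with 13 called higher and 4 lower. The spindle checkpoint kinase TTK had 5.97 in culture 1 and 7.65 in culture 2, the centriole kinase PLK4 5.62 and 7.51, and the motor CENPE 6.39 and 5.62. At the other end MAD1L1, a checkpoint protein, had 0.38 and 0.354. Kinesins, the motors of microtubules, had medians of 1.69 and 2.28 over 40 members, with 9 called higher and 5 lower, from KIF18A (7.47 and 6.51) to KIF26A (0.359 and 0.308). Proteins of DNA replication and licensing had 1.65 and 1.72 over 44 members, 4 of them called higher and 6 lower. The clamp loader subunit RFC1 had 6.30 and 5.25, while the catalytic subunit of polymerase delta, POLD1, had 0.378 and 0.357, and the licensing factor CDT1 0.409 and 0.385. Tubulins and actins had 0.55 and 0.565 over 23 members, with 4 called lower and none higher, among them TUBB3 (0.32 and 0.315).

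The HSP70, HSP90 and DNAJ list had medians of 2.03 and 1.92 over 61 members, with 12 called higher and 2 lower, and HSP90AA1 (5.98 and 6.10) and HSPH1 (5.33 and 5.13) were high. The CCT chaperonin and prefoldin list, which folds actin and tubulin, had 1.41 and 1.47 over 14 members, with none called higher and 1 lower. CCT8 (2.74 and 2.92) and CCT7 (0.528 and 0.562) are subunits of the same ring. Endoplasmic reticulum chaperones had 1.31 and 1.47 over 26 members, with 4 called higher and 2 lower. The differences between these lists were not tested. Proteasome subunits had 0.914 and 1.01 over 45 members, with 1 called higher and 4 lower. The activator PSME4 had 3.98 and 4.21, and the catalytic subunit PSMB5 0.391 and 0.424.

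Some pathways held genes at both extremes, as did all genes together, of which 9.33% were called higher and 9.5% lower. Whether any list differed from these shares was not tested. In cholesterol synthesis, 2 of 24 members, HMGCS1 (4.32 and 4.42) among them, were called higher, and 7, with DHCR7 (0.337 and 0.336) and LSS (0.379 and 0.369), were called lower. Among 33 genes of the integrated stress response, the tRNA exporter XPOT had 5.05 and 4.87 and the serine synthesis enzyme PHGDH 0.322 and 0.325, with 4 called higher and 6 lower. Of 26 p53 targets, 4 were called higher and 1 lower, and MDM2, which marks p53 for decay, had 6.37 and 6.10. In the spliceosome, SF3B1 had 3.79 and 3.77, LSM4 0.357 in each culture and SNRPB 0.423 and 0.393. Integrin ITGA6, a laminin receptor of these cells, had 4.73 and 4.10, and the laminin chain LAMA5 0.258 and 0.234.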
